A study of Homo sapiens with 52 samples.

Results

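The interferon response and antigen presentation genes described here were 50 genes picked by name from the 27043 genes of each expression table: 18 genes of the antigen presentation (MHC) machinery and 32 interferon-stimulated genes. A gene was tested when its level was at least 1 TPM (a length-normalised expression unit) in 2 or more of the 52 samples. This filter was passed by 31 of the 50 members, 4 of them antigen presentation genes and 27 interferon genes, and by 16359 of all genes. Expression was measured by RNA-seq in fusion-positive rhabdomyosarcoma (FP-RMS) cells, a childhood muscle tumour line carrying the PAX3-FOXO1 fusion, after exposure to small molecules aimed mostly at chromatin proteins.

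The screen held 20 compounds for 6 h, each with 1 high-dose and 1 low-dose sample. High and low doses were 10 and 1 µM, except for Cpd50, GSKJ4 and LAQ824 at 5 and 0.5 µM, and the controls were 4 libraries of the solvent DMSO, 2 at 0.1% and 2 at 0.2%. Compounds of the acetylation axis were the HDAC inhibitors LAQ824 (label target HDAC), MC1568 (HDAC4/5), Merck60 (HDAC1/2), OJI-1 (HDAC8) and WT161 (HDAC6), and the bromodomain inhibitors Bromosporin and SGC-CBP30. Compounds of the methylation axis were Cpd50 and GSKJ4 (Jumonji demethylases), GSKLSD1, LSD-519 and LSD-690 (LSD1), EZ-005 (EZH2), UNC1999 (EZH1), UNC0638 (KMT1C), PFI-2 (SETD7), SGC0946 (DOT1L) and UNC-1215 (L3MBTL3). PFI-3 (SMARCA4) and Trametinib (MEK1/2) belonged to neither axis. Separately, the HDAC inhibitor N1302 at 1 µM was set against its own 0.1% DMSO at 6 h, and entinostat (HDAC1/2/3) at 1 µM against DMSO at 1, 6 and 24 h, with 1 sample per condition, all in RH4 cells by title and label. The line of the screen samples is RH41 in their titles and RH4 in another label, so screen and other samples were never tested against each other. Nothing in the labels says that the samples came from separate cultures, so p-values measure only the spread between these samples, and the doses of a compound served as its 2 samples.

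Interferons bind receptors that activate JAK kinases and STAT transcription factors; the complex that holds STAT2 and IRF9 binds interferon-stimulated response elements (ISREs) in the promoters of antiviral genes, and IRF7 amplifies the type I response. Antigen presentation places peptides cut by the immunoproteasome and carried by the TAP transporter on HLA class I molecules, which need beta-2-microglobulin (B2M) to reach the cell surface. NLRC5 and CIITA are the transactivators of class I and class II genes.

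The libraries held 5452285 to 39406563 recovered reads, with a median of 14311281. The 4 DMSO libraries differed between concentrations (variance 2.46 times counting noise) and between flow cells (2.2 times), and beyond those by no more than sampling noise (1.03 times), so the libraries of a concentration were averaged and counted as 1 sample each, giving n = 2. FP-RMS markers such as MYOD1 (48.5 to 648 TPM), MYOG (32.2 to 1287 TPM) and FGFR4 (389 to 1339 TPM) were present in every sample, whereas MYF5 and CDH3 had medians of 0.122 and 0.326 TPM. The leukocyte markers PTPRC and CD3E had a median of 0 TPM, and CD14 ranged from 0.121 to 9.79 TPM. Of the 6 leukocyte markers only CD14 reached 1 TPM in any sample, so the larger leukocyte sums given below rest mostly on CD14. In bulk samples, fewer cells of a type and less RNA per cell cannot be told apart.

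Most of the antigen presentation genes could not be read from these tables. Of the 18, 12 lie in the MHC region of chromosome 6 (hg19, a window of 233 genes with starts from 28539407 to 33406108, set after the values were seen): HLA-B, HLA-C, HLA-E, HLA-F, TAP1, TAP2, TAPBP, PSMB8, PSMB9, HLA-DRA, HLA-DMA and HLA-DPA1. Of these 12, 8 were listed at 0 in all 52 samples, TAP1 and PSMB9 among them, and 11 never reached 1 TPM. The neighbours were listed in the same way. In that window 189 of the 233 genes (81.1%) were at 0 in every sample, against 7.92% of the other genes of chromosome 6 and 12.6% of all genes. Genes that every cell uses were among them, for example TUBB, a beta tubulin, CSNK2B, a casein kinase subunit, and VARS, a valyl-tRNA synthetase, all listed at 0 in 52 samples (named after their values were seen). The values therefore say nothing of whether these HLA, TAP and immunoproteasome genes were expressed, and why they were listed at 0 was not tested. Only HLA-B, which presents peptides to T cells, passed the filter, with at least 1 TPM in 4 samples and a maximum of 11.1 TPM after 24 h of entinostat.

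**Figure D1:**
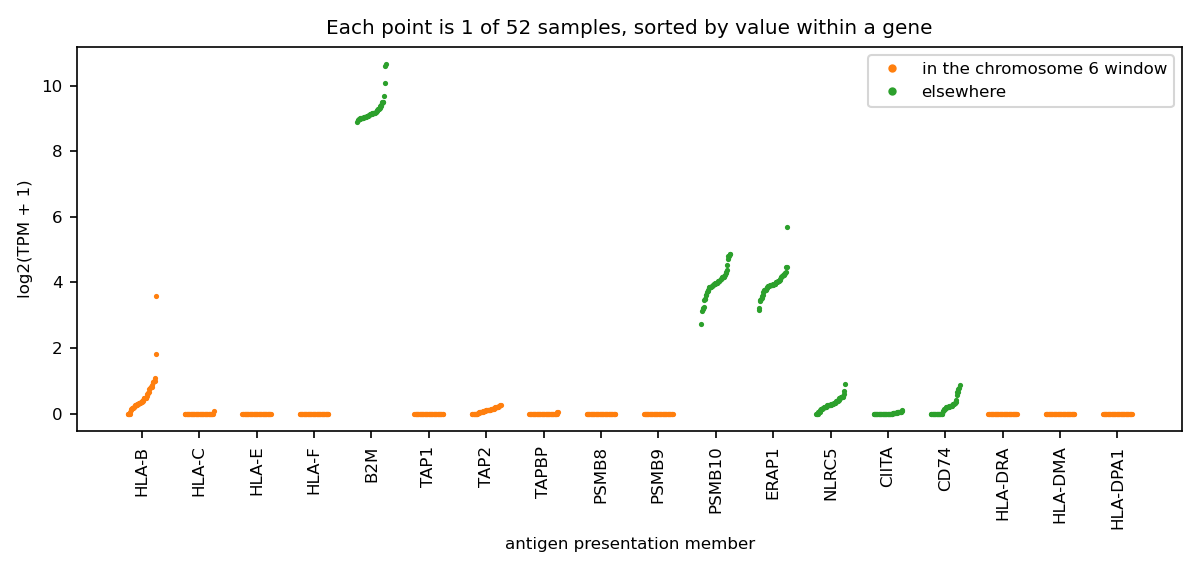
Level of the 18 antigen presentation members, as log2(TPM + 1), with 1 point for each of the 52 samples sorted within a gene. Of the 12 genes in the chromosome 6 window (orange), 11 never reached 1 TPM, while B2M, PSMB10 and ERAP1 (green, elsewhere in the genome) were read in all 52 samples.

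Outside that region, B2M (chr15:45003685-45010357), PSMB10 (chr16:67968407-67970780), an immunoproteasome subunit, and ERAP1 (chr5:96096514-96149848), which trims peptides in the endoplasmic reticulum, were at 1 TPM or more in all 52 samples. In screen DMSO they averaged 536.5 ± 12.4, 17.2 ± 0.14 and 13.2 ± 0.32 TPM (SD between the means of the 2 concentrations, n = 2). This SD leaves out the spread between single libraries, which ran from 14.5 to 19.6 TPM for PSMB10. NLRC5 never passed 0.867 TPM, CIITA 0.0862 TPM and CD74, the class II invariant chain, 0.824 TPM. The number of antigen presentation members at 1 TPM or more was thus 3 or 4 in every sample. None of the interferon members lies in the window, and 16 to 23 of the 32 were at 1 TPM or more, with the fewest at the high dose of Bromosporin and the most in the DMSO of the N1302 experiment.

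The resting interferon program was uneven. In screen DMSO the membrane-bound viral entry inhibitors IFITM3 (337.4 ± 7.3 TPM, SD between concentration means, n = 2) and IFITM2 (107.9 ± 2.8 TPM) stood highest among interferon members. Below them came ISG15, a ubiquitin-like modifier (67.5 ± 4.1 TPM), STAT2 (64.4 ± 6.2 TPM), IFI6 (62.7 ± 0.41 TPM) and IRF3 (62.5 ± 1.5 TPM), each of which differed from the next in this order by less than the larger of their SDs. IFI44 averaged 44.3 ± 0.96 TPM and IRF9 26.0 ± 0.26 TPM. IFIT1, IFIT2 and IFIT3, which bind viral RNA or assemble with its binders, were at 1.56 ± 0.22, 2.88 ± 0.060 and 2.52 ± 0.12 TPM. Single libraries spread more widely, from 2.41 to 3.44 TPM for IFIT2. At the bottom, IFIH1, OAS1, OAS2, MX1 and TRIM22 never reached 1 TPM in any sample. IFITM2 and IFITM3 are near-identical copies, so the split of reads between them is uncertain.

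Members changed in 5 of the 20 compounds. A member was called when its adjusted p was under 0.05 (limma, Benjamini-Hochberg over 16359 genes) and its log2(TPM + 1) differed at least 2-fold from DMSO. LAQ824 held 10 of the 18 calls, Bromosporin 5, and Cpd50, MC1568 and WT161 1 each. The LAQ824 rises held the transcription factors STAT2, IRF9 and IRF7 and the interferon-stimulated genes IFIT1, IFI27 and IFI35. The falls were in IFI16, IFI44, IFIT2 and IFIT3, so interferon-stimulated genes went both ways.

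**Figure D2:**
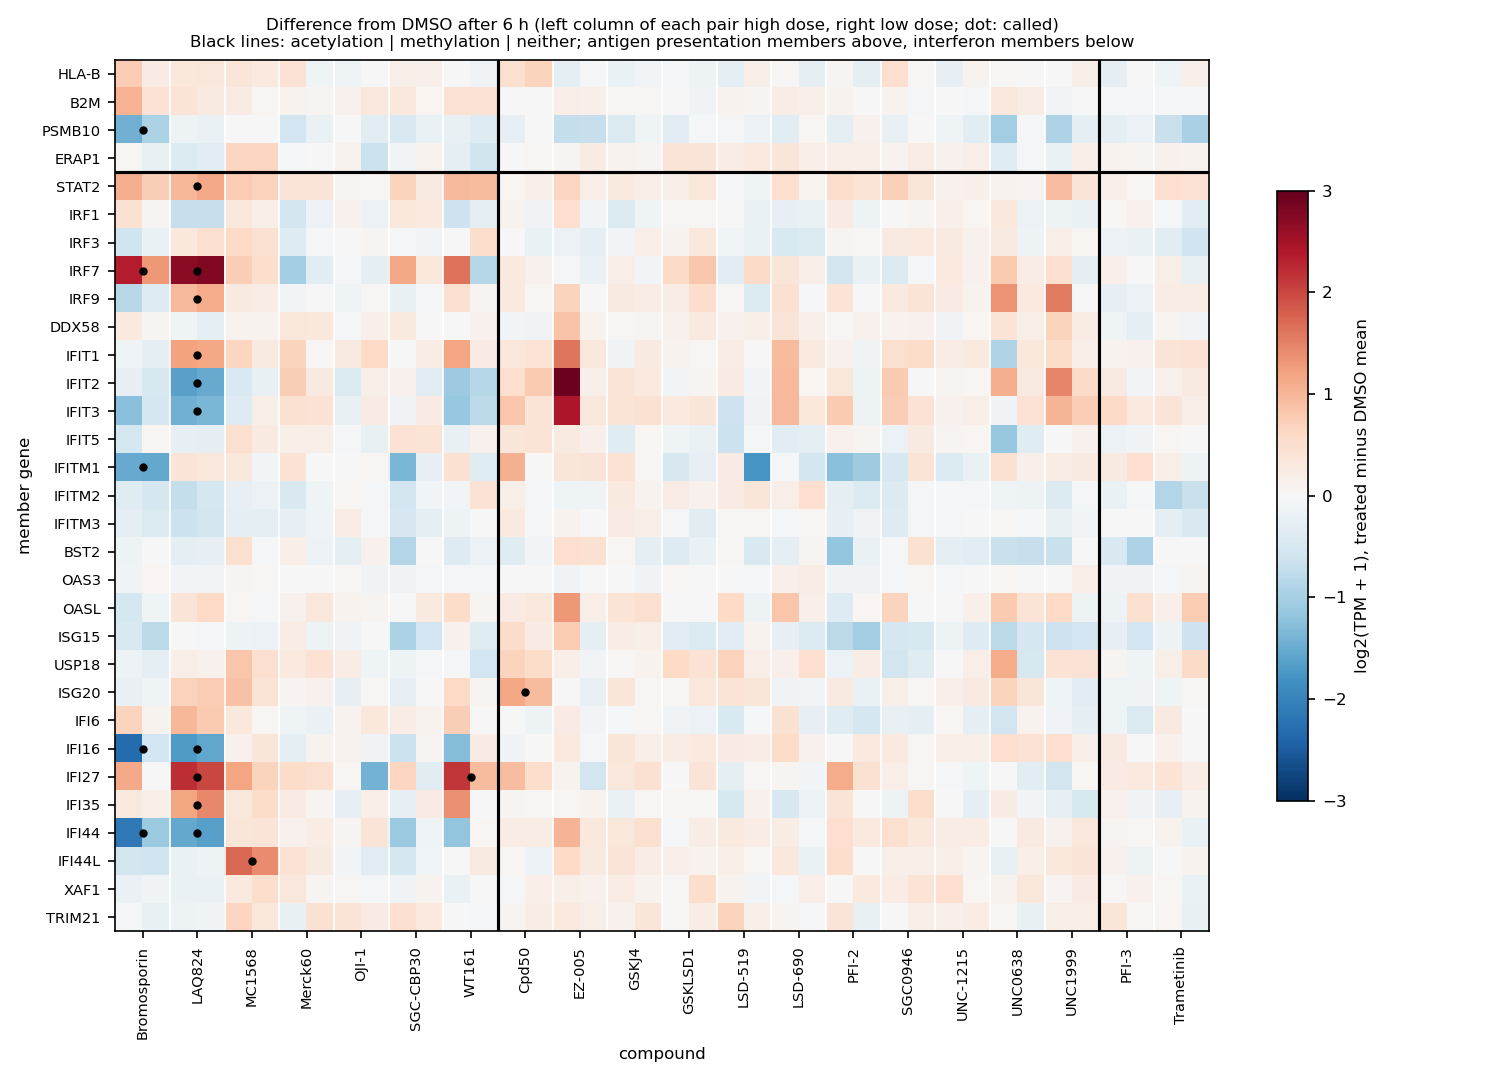
Difference of log2(TPM + 1) from DMSO for the 31 tested members (rows) in each compound (columns, high dose left and low dose right). Dots mark the 18 calls over both doses, and LAQ824, with 10 of them, is coloured alike at both.

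LAQ824 raised 6 of the 31 tested members, against 13.7% of all genes tested, and lowered 4, against 11.6% of all genes. Both counts lie close to those shares, so nothing particular to the members was read from them. On the log2(TPM + 1) scale a gene under 1 TPM in DMSO cannot be called lower in any compound. This holds for HLA-B, OAS3, OASL, USP18, ISG20, IFI35, IFI44L, XAF1 and TRIM21. OAS3 and TRIM21 passed the filter only through the samples of the N1302 experiment. Such genes were left in the count of members and in that of all genes. The 3 largest rises were in IRF7, IFI27 and IFI35. IRF7 stood at 29.2 TPM at 5 µM and 31.2 TPM at 0.5 µM, against 3.66, 3.66, 4.01 and 3.33 TPM in the 4 DMSO libraries. Both treated samples lay far above every control, and the log2 difference was 2.74 ± 0.48 (SE; adjusted p = 4.46e-05). IFI27, a mitochondrial interferon-induced protein, stood at 11.5 and 9.80 TPM against 1.81, 1.37, 2.11 and 1.52 TPM in DMSO (log2 difference 2.11 ± 0.42, adjusted p = 0.000166). IFI35 reached 2.14 and 2.79 TPM against 0.392, 0.492, 0.487 and 0.195 TPM (1.31 ± 0.30, adjusted p = 0.00072), a change that started from a few reads. Of the factors that form the ISRE-binding complex, STAT2 rose from 58.4 to 69.1 TPM in DMSO to 129 and 141 TPM (1.06 ± 0.17, adjusted p = 1.24e-05). IRF9 rose from 24.3 to 27.3 TPM to 51.5 and 57.2 TPM (1.04 ± 0.34, adjusted p = 0.0118). At the high dose alone neither was called, STAT2 at 0.997, just under the 2-fold limit, and IRF9 at 0.96 (adjusted p = 0.0695).

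The 4 members that fell in LAQ824 were IFI16, IFI44, IFIT2 and IFIT3. IFI16, a DNA sensor, stood at 4.05 and 4.60 TPM against 16.6, 16.6, 13.6 and 15.0 TPM in DMSO (log2 difference -1.63 ± 0.38, adjusted p = 0.000922). IFI44 stood at 14.6 and 13.7 TPM against 41.2, 46.1, 45.7 and 44.3 TPM (-1.58 ± 0.31, adjusted p = 0.00017). IFIT2 was at 0.246 and 0.348 TPM against 2.76, 2.92, 3.44 and 2.41 TPM (-1.58 ± 0.51, adjusted p = 0.0114). In all 3 both treated samples lay below every control library. At the low dose alone IFIT2 was not called (-1.52, adjusted p = 0.0581). Among the other members fixed for description, B2M (708 and 645 TPM, log2 difference 0.33 ± 0.12, adjusted p = 0.0196) and IFITM3 (214 and 230 TPM, -0.60 ± 0.12, adjusted p = 0.00018) passed the p threshold and missed the 2-fold limit, as did IRF1 (6.39 and 6.43 TPM, -0.69 ± 0.20, adjusted p = 0.00505). ISG15 was at 66.7 and 65.4 TPM, inside the DMSO range of 64.5 to 72.2 TPM, and HLA-B at 0.533 and 0.554 TPM against 0.153 to 0.303 TPM. LAQ824 shared its flow cell with 2 of the DMSO libraries, and with the flow cell as a replicate block all 10 calls were made again, with 25.7% of all genes called in either direction. FP-RMS markers summed to 1306 and 1363 TPM in LAQ824 against 3459 to 3589 TPM in DMSO, and leukocyte markers to 10.8 and 10.3 TPM against 1.28 to 2.36 TPM, with PTPRC and CD3E at most 0.27 TPM in all 52 samples. The part of either in the member changes was not tested.

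The IFIT genes lie side by side on chromosome 10 and are known ISRE genes, yet they went different ways in LAQ824. IFIT1 (hg19, chr10:91152303-91166244) rose to 4.93 and 4.67 TPM from 1.66, 1.76, 1.62 and 1.19 TPM (log2 difference 1.19 ± 0.35, adjusted p = 0.00674). IFIT3 (chr10:91087576-91100725) fell to 0.284 and 0.362 TPM from 2.49, 2.38, 2.44 and 2.77 TPM (-1.41 ± 0.41, adjusted p = 0.0059). IFIT5 was not called and stood at 6.37 and 6.09 TPM in LAQ824, below its 6.60 to 8.88 TPM in DMSO. The upstream sequences of IFIT1, IFIT3 and IFI44 are shown because the first rose while the others fell, although each holds the core of an ISRE, searched as a pair of GAAA with any 2 bases between them, or on the other strand a pair of TTTC so spaced (capitals). They are the 250 bases before the transcript start in RefSeq on GRCh38.p14, a different build from the hg19 coordinates of the tables.
IFIT1 (chr10:89392373-89392622, plus strand): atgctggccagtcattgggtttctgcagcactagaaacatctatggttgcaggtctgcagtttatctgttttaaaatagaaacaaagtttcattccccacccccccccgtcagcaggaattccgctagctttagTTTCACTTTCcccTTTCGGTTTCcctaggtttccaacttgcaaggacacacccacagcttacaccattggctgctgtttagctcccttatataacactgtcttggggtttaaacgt
IFIT3 (chr10:89327747-89327996, plus strand): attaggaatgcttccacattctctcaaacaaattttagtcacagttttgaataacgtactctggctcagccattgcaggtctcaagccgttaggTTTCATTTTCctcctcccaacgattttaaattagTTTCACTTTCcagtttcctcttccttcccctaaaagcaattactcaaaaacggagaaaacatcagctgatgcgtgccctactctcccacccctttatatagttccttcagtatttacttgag
IFI44 (chr1:78649539-78649788, plus strand): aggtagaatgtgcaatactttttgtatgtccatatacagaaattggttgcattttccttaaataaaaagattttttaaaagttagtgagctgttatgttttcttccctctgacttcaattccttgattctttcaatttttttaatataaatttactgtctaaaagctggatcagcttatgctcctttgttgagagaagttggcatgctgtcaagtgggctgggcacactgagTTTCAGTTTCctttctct
IFIT1 and IFIT3 hold 2 matches each, read as TTTC pairs on the shown strand, and IFI44 holds 1. Of the 50 members, 38 matched a promoter entry, and 20 of these 38 (52.6%) held the motif on either strand, against 1061 of all 35116 promoters (3.02%). Among tested members it was in 15 of 25. IRF9, STAT2 and IFI35, which rose in LAQ824, had no match in this window, and IFI16, which fell, had none. IFI27, which also rose, held 2 matches. IRF7 and IFIT2 had no promoter entry. A match is a description of letters and not a bound site.

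**Figure D3:**
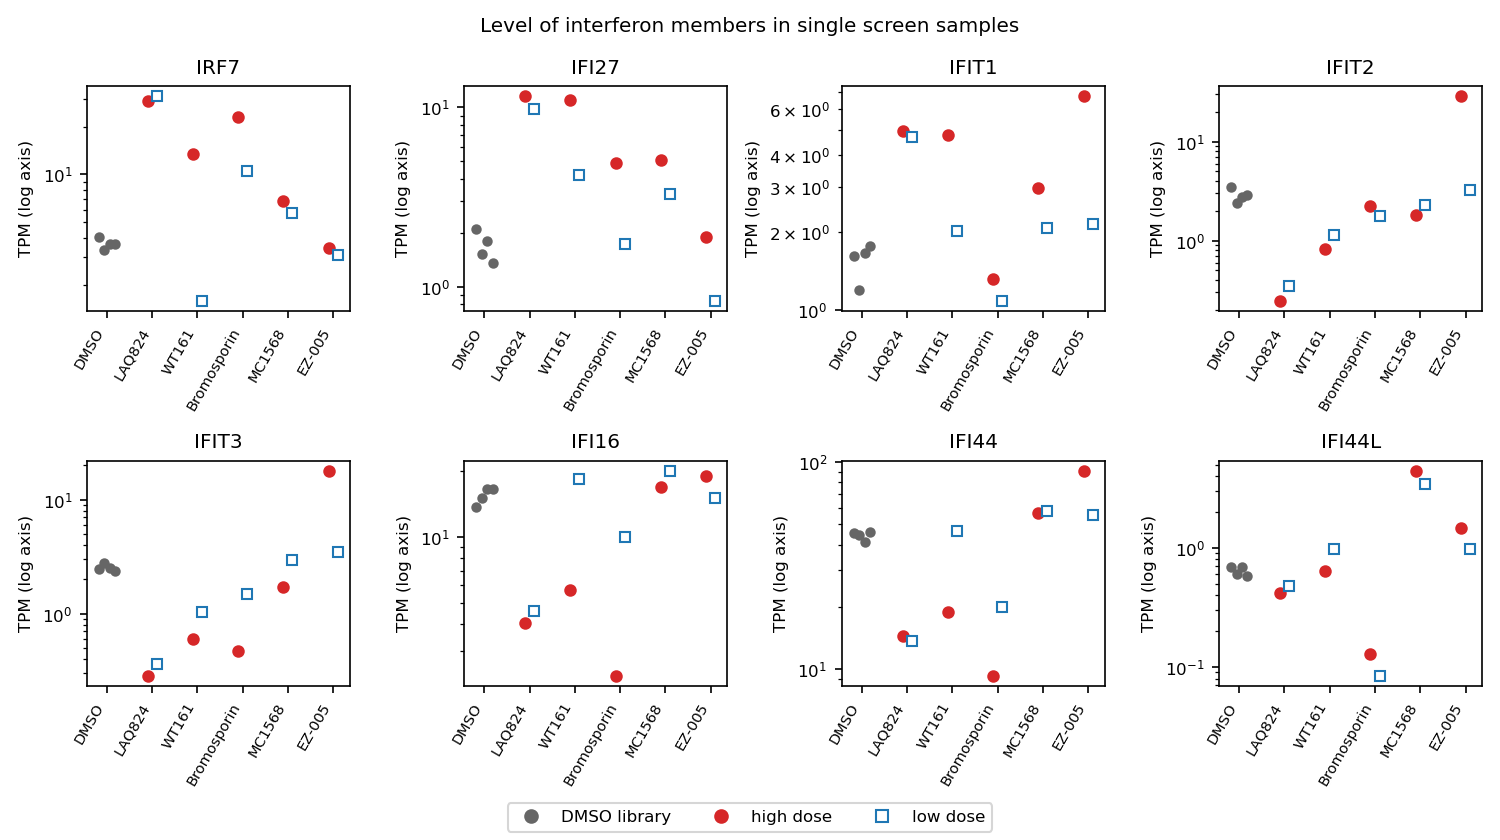
Level in TPM (log axis) of 8 interferon members in single screen samples: 4 DMSO libraries (grey), the high dose (red circles) and the low dose (open blue squares) of 5 compounds. In LAQ824 IRF7, IFI27 and IFIT1 lie above all DMSO libraries at both doses and IFIT2, IFIT3, IFI16 and IFI44 below them, and in EZ-005 the high dose alone stands out for IFIT2 and IFIT3.

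Bromosporin, which binds bromodomains broadly, raised 1 of the 31 members, against 3.96% of all genes, and lowered 4, against 9.02% of all genes. IRF7 rose to 23.0 TPM at 10 µM and 10.5 TPM at 1 µM (log2 difference 1.83 ± 0.48, adjusted p = 0.00508). IFI44 fell to 9.31 and 19.9 TPM (-1.62 ± 0.31, adjusted p = 0.00048), IFI16 to 2.32 and 9.93 TPM (-1.45 ± 0.38, adjusted p = 0.00505) and IFITM1 to 0.706 and 0.695 TPM from 4.33, 3.60, 2.76 and 5.27 TPM (-1.53 ± 0.44, adjusted p = 0.00933). PSMB10 fell to 5.66 and 8.42 TPM from 18.7, 15.9, 14.5 and 19.6 TPM (-1.19 ± 0.25, adjusted p = 0.000925), the only call among antigen presentation members in the screen. B2M went the other way, at 1098 and 728 TPM against 515 to 562 TPM, and missed the 2-fold limit (0.74 ± 0.12, adjusted p = 0.000116). All these Bromosporin samples lay outside the range of the 4 DMSO libraries. ISG15 stood at 48.7 and 38.5 TPM (-0.63 ± 0.24, adjusted p = 0.0419), IFIT1 at 1.32 and 1.08 TPM, IFIT2 at 2.25 and 1.78 TPM, and IRF9 at 14.3 and 19.6 TPM (-0.60 ± 0.34, adjusted p = 0.166). FP-RMS markers summed to 1810 and 2431 TPM, and leukocyte markers to 5.04 and 1.83 TPM against 1.28 to 2.36 TPM in DMSO. The part of either was not tested. The calls rested on a spread shared over the screen: with Bromosporin and DMSO alone in the fit none of the 5 was made, with the low dose alone none, and with the high dose alone 8 members were called, B2M, STAT2 and IFIT3 among them, against 25.4% of all genes. Bromosporin's flow cell held no DMSO, and against the other compounds of that flow cell 5 members were called, against 11.3% of all genes, IFIT3 taking the place of PSMB10.

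In WT161 the single call was IFI27, at 10.9 TPM at 10 µM and 4.18 TPM at 1 µM (log2 difference 1.55 ± 0.42, adjusted p = 0.00645), 1 of 31 members against 5.34% of all genes higher. The doses differed widely. IRF7 stood at 13.5 TPM at the high dose and 1.59 TPM at the low dose, on either side of the DMSO range, and IFI44 at 18.9 and 46.4 TPM. STAT2 was above DMSO at both doses (127 and 124 TPM; 0.96 ± 0.17, adjusted p = 0.000161), just under the 2-fold limit. With the high dose alone 6 members were called in WT161, IRF7, IFIT1, IFI27 and IFI35 higher and IFI16 and IFI44 lower, against 19.2% of all genes, and with the low dose alone none, nor with WT161 and DMSO alone in the fit. FP-RMS markers summed to 1503 and 2268 TPM, and leukocyte markers to 6.63 and 1.6 TPM. The part of either was not tested.

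MC1568 raised IFI44L, 1 of 31 members against 6.84% of all genes. It stood at 4.43 and 3.41 TPM against 0.693, 0.584, 0.697 and 0.600 TPM in DMSO, clear of every control (1.57 ± 0.20, adjusted p = 1.49e-05). Its neighbour IFI44 stood at 56.9 and 58.2 TPM and was not called. With the flow cell as a replicate block IFI27 was called as well (log2 difference 1.06 ± 0.19, adjusted p = 0.0026), with 7.81% of all genes called. In MC1568 endothelial markers summed to 1.59 and 1.06 TPM against 0.317 to 0.664 TPM in DMSO, and epithelial markers to 0.504 and 0.458 TPM against at most 0.17 TPM. The part of either was not tested. Cpd50 raised ISG20, an RNA exonuclease, to 2.24 and 1.81 TPM from 0.310, 0.533, 0.577 and 0.429 TPM (1.05 ± 0.19, adjusted p = 0.000801), 1 of 31 members against 2.01% of all genes; at the low dose alone it was not called.

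In the other 15 compounds no tested member was called, which has to be read against how little else was. Calls over all genes in either direction were 0.0306% in EZ-005, 0.00611% in GSKJ4, 0.96% in GSKLSD1, 0.293% in LSD-519 and 0.532% in LSD-690. They were 0.0367% in Merck60, 0.0734% in OJI-1, 1.23% in SGC-CBP30, 0.128% in PFI-2 and 0.0917% in SGC0946. In UNC-1215 they were 0.0428%, in UNC1999 0.0306%, in PFI-3 0.0306%, in Trametinib 1.14% and in UNC0638, the broadest of the 15, 3.25%. Members at an unadjusted p under 0.05 numbered 9 of 31 in EZ-005, against 6.24% of all genes, 7 in UNC0638 (29.6%), 6 in UNC1999 (6.81%), 5 in Trametinib (12.4%) and 4 in PFI-2 (8.72%). They numbered 3 in SGC-CBP30 (16.9%), 2 in SGC0946 (6.26%) and 1 each in GSKLSD1 (14.1%), LSD-519 (6.48%), LSD-690 (10.8%), Merck60 (7.01%) and PFI-3 (1.88%). There were 0 in GSKJ4 (2.4%), OJI-1 (7.69%) and UNC-1215 (2.3%).

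EZ-005, aimed at the H3K27 methyltransferase EZH2, gave the highest IFIT2 and IFIT3 levels of all 52 samples, at its high dose. IFIT2 stood at 28.7 TPM at 10 µM and 3.27 TPM at 1 µM, against 2.41 to 3.44 TPM in DMSO. IFIT3 stood at 17.9 and 3.48 TPM against 2.38 to 2.77 TPM, and IFIT1 at 6.74 and 2.15 TPM. ISG15 (115 and 55.2 TPM), IFI44 (90.7 and 55.5 TPM) and OASL (3.01 and 0.867 TPM), a member of the OAS antiviral family, were also highest among treated screen samples at the high dose. At the low dose IFIT2 lay inside the DMSO range and ISG15 below it, while IFIT3, IFIT1 and IFI44 lay above it by less, and over both doses neither IFIT2 (1.54 ± 0.51, adjusted p = 0.442) nor IFIT3 (1.39 ± 0.41, adjusted p = 0.352) was called. With the high dose alone, a lone sample assumed to vary like the others, both were called, by 2.94 ± 0.40 (adjusted p = 0.000287) and 2.42 ± 0.36 (adjusted p = 0.00103), in a fit that called 0.0611% of all genes. Endothelial markers summed to 1.33 TPM at the high dose and 0.272 TPM at the low dose against 0.317 to 0.664 TPM in DMSO, and their part was not tested. UNC1999, whose label names EZH1, had IRF9 at 78.9 TPM at 10 µM and 25.9 TPM at 1 µM, the former the highest IRF9 level of any sample, IFIT2 at 9.59 and 4.79 TPM and IFIT3 at 6.13 and 4.91 TPM. Its high dose alone gave 1 call, IRF9 (1.57 ± 0.31, adjusted p = 0.0235), against 0.226% of all genes. UNC0638 had IRF9 at 68.0 and 32.1 TPM, and its high dose alone gave 4 calls, IRF9 and USP18 higher and IFIT5 and PSMB10 lower, against 19.3% of all genes. SGC-CBP30 at its high dose alone gave 1 call, IFI44 lower (19.9 TPM against 40.7 TPM at the low dose), against 4.49% of all genes.

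The members fixed for description had these ranges over the 20 compounds. The log2 difference of B2M ran from -0.06 in Trametinib to 0.74 in Bromosporin, that of IRF1 from -0.69 in LAQ824 to 0.32 in SGC-CBP30 and that of IFITM3 from -0.60 in LAQ824 to 0.20 in GSKJ4. ISG15 was below DMSO in all but 4 compounds, with a median of -0.31 and its lowest value in PFI-2 (38.3 and 32.1 TPM, -0.92 ± 0.24, adjusted p = 0.0885). STAT2 was above DMSO in 19 of 20 compounds (median 0.41). HLA-B ranged from -0.18 in EZ-005 to 0.58 in Cpd50 at levels of at most 1.10 TPM. All 20 compounds share the same DMSO controls, so such shared signs are not independent of each other.

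As a set, the interferon members moved by small amounts. Over the 19 with a mean of at least 1 TPM in the screen, the median difference over both doses ran from -0.35 in Bromosporin to 0.24 in EZ-005. In Bromosporin the median over all tested genes was -0.12 and in EZ-005 0.02. With median-ratio scaling the Bromosporin median was -0.23, and that of Cpd50 went from 0.18 to 0.30. In LAQ824 the median was -0.20 while the mean was 0.05, the signs differing because IRF7 and IFI27 rose far. EZ-005 had a median of 0.49 at the high dose and 0.02 at the low dose. The antigen presentation set held 3 genes (B2M, PSMB10 and ERAP1), with medians from -0.31 in WT161 to 0.18 in LSD-690.

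Between the axes, the acetylation compounds had lower IFIT2, IFIT3, IFI16 and IFI44 and higher IFI6, STAT2 and B2M on average, but no member, and no gene at all (0% of those tested), passed the threshold (limma on the means of 7 and 11 compounds). At an unadjusted p under 0.05 there were 10 of 31 members, 5 in each direction, against 30.7% of all genes. The smallest adjusted p was 0.0568, for IFIT2 (1.53 ± 0.67 against 2.44 ± 0.47 in log2(TPM + 1), SD, difference -0.91 ± 0.25, SE), IFI16 (3.51 ± 0.73 against 4.26 ± 0.14) and IFI6 (6.28 ± 0.32 against 5.86 ± 0.16), a mitochondrial survival factor. With the high doses alone 6 members were called: IFI6 and IFI27 higher, 2 of 31 against 5.4% of all genes, and IFIT2, IFIT3, IFI16 and IFI44 lower, 4 of 31 against 4.47%. Among the compounds of the largest flow cell alone no member was called. The share of all genes called in that fit is not given here, so this was not read as a result about the members. Leaving out MC1568, Merck60 or OJI-1 moved the count from 0 to 7, 8 and 10, while 15.3%, 16.3% and 18.7% of all genes were called in those fits. B2M (0.24 ± 0.08, adjusted p = 0.0727), IFITM3 (-0.22 ± 0.09, adjusted p = 0.1), IRF9 (-0.21 ± 0.18), IFIT1 (0.15 ± 0.18), IRF1 (-0.08 ± 0.14), ISG15 (0.02 ± 0.17) and HLA-B (0.18 ± 0.11) were not called in either fit.

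**Figure D4:**
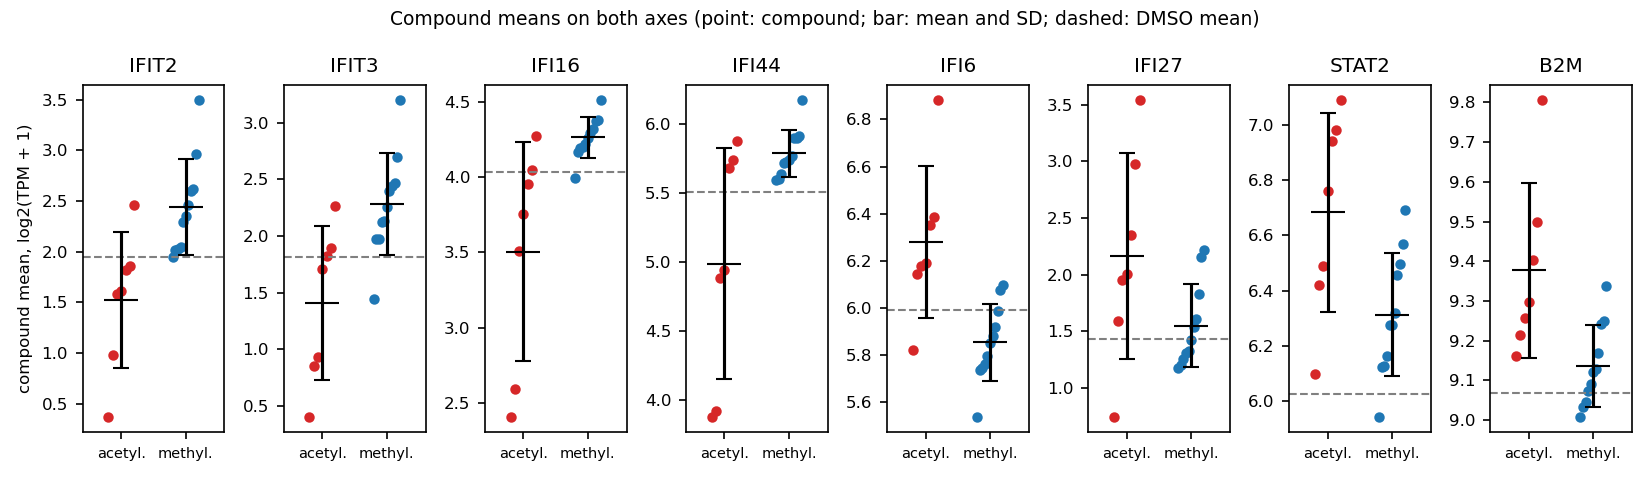
Compound means of 8 members in log2(TPM + 1) for the 7 acetylation compounds (red) and 11 methylation compounds (blue), with mean and SD as bars and the DMSO mean dashed. The acetylation compounds spread widely for IFIT2, IFIT3, IFI16 and IFI44, from above the DMSO mean down to LAQ824, or for IFI44 down to Bromosporin.

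The 10-fold dose step changed no member at the threshold on either axis, nor any gene (0% on each). On the acetylation axis 4 of 31 members had an unadjusted p under 0.05, against 14.2% of all genes. IFI27 was higher at the high dose in 7 of 7 compounds (0.80 ± 0.19, adjusted p = 0.349), and IFIT3, IFI16 and IFI44 were higher in 1 of 7. On the methylation axis 6 of 31 did, against 11.8% of all genes, with IRF9 (0.43 ± 0.15, adjusted p = 0.381) and IFIT2 (0.61 ± 0.23, adjusted p = 0.384) higher at the high dose in 9 of 11 compounds each. The step did not differ between axes for any member or gene at the threshold (0%), with 6 of 31 members at an unadjusted p under 0.05 against 15.6% of all genes. Between DMSO concentrations no member and no gene was called (0%), and 4 of 31 members had an unadjusted p under 0.05 against 9.46% of all genes.

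Of a further 67 genes of the pathway, 51 were tested. LAQ824 raised 3 and lowered 10 of them, Bromosporin raised 2 and lowered 7, and WT161 raised 2 and lowered 4. MC1568 raised 3, UNC0638 lowered 1, and no other compound had a call among them. Of all genes LAQ824 raised 13.7% and lowered 11.6%, Bromosporin raised 3.96% and lowered 9.02%, WT161 raised 5.34% and lowered 5.04%, MC1568 raised 6.84% and UNC0638 lowered 2.46%. PARP9 and DTX3L, which form an interferon-induced ubiquitin ligase pair, fell furthest in all 3 compounds. In LAQ824 PARP9 stood at 0.983 and 1.17 TPM against 13.1 to 15.9 TPM in DMSO (-2.92 ± 0.34, adjusted p = 2.98e-07) and DTX3L at 0.646 and 0.562 TPM against 10.0 to 11.3 TPM (-2.89 ± 0.29, adjusted p = 4.35e-08). In Bromosporin they fell by 2.33 and 1.74 on the log2 scale and in WT161 by 1.79 and 1.88. SAMHD1, which depletes deoxynucleotides, rose in LAQ824 (34.4 and 32.6 TPM against 6.96 to 8.57 TPM; 1.99 ± 0.27, adjusted p = 1.77e-06) and in WT161 (31.8 and 21.0 TPM; 1.63 ± 0.27, adjusted p = 8.53e-05). It was also called higher in MC1568 (22.3 and 12.3 TPM, 1.02) and lower in UNC0638 (1.93 and 4.76 TPM, -1.08). IRF8 was called higher in LAQ824 (6.14 and 5.58 TPM against 1.23 to 1.39 TPM) and in WT161 (6.18 and 2.36 TPM). In Bromosporin the rises were in the kinase JAK1 (198 and 102 TPM against 56.9 to 61.2 TPM) and the feedback inhibitor SOCS1 (24.7 and 14.6 TPM against 7.52 to 9.61 TPM).

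N1302, a further HDAC inhibitor, was compared in 1 sample with 1 DMSO sample, without a replicate check. Of 31 members, 6 were at least 2-fold higher, against 11.6% of all genes, and 6 at least 2-fold lower, against 19.3%. IRF7 led the rises (16.4 against 1.65 TPM, log2 difference 2.72), followed by ISG15 (184.5 against 57.7 TPM, 1.66) and IFI6 (152.5 against 48.7 TPM, 1.63). IFIT3 led the falls (0.212 against 2.82 TPM, or 4 against 76 recovered reads, -1.66), with IFI16 (2.19 against 8.63 TPM, -1.60) and IFI44 (8.49 against 27.7 TPM, -1.60). IFIT1 was higher (5.70 against 1.75 TPM) and IFIT2 lower (0.610 against 2.28 TPM). B2M (1548 against 1609 TPM), IFITM3 (347 against 340 TPM), IRF1 (10.7 against 10.9 TPM) and IRF9 (9.49 against 10.1 TPM) lay within 0.1 of DMSO on the log2 scale. ERAP1 was the antigen presentation member past 2-fold, lower at 18.6 against 50.5 TPM, and HLA-B stood at 2.56 against 0.988 TPM. The time course DMSO at 6 h had ERAP1 at 18.1 TPM, so its fall depends on the level of the 1 control used here. Scaling the samples by median ratios moved the split to 10 higher and 5 lower. It also raised the median of all genes by 0.14. The shares of all genes above are for unscaled values, so the scaled split has none beside it. FP-RMS markers summed to 1821 TPM against 2735 TPM and leukocyte markers to 5.97 against 1.18 TPM. The part of either was not tested.

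After 1 h of entinostat no member was past 2-fold (-0.22 to 0.30 on the log2 scale), and 0.66% of all genes were higher and 0.581% lower. At 6 h IFI44L alone was past 2-fold, higher at 1.83 against 0.386 TPM, 1 of 31 members against 5.13% of all genes higher and 0 against 0.947% lower. At 24 h 8 members were higher, against 16.4% of all genes, and 2 lower, against 6.06%. HLA-B stood at 11.1 TPM against 0.768 TPM (213 against 16 recovered reads, log2 difference 2.78), IFI44L at 8.59 against 0.577 TPM (2.60) and BST2, the virion tether tetherin, at 22 against 2.81 TPM (2.60). IFI6, IFITM1, IFIT1, IFI44 and IRF7 were the other members past 2-fold, at 111 against 26.0 TPM, 11.4 against 2.05 TPM, 7.85 against 1.47 TPM, 49.2 against 20.7 TPM and 9.75 against 3.69 TPM. IFITM3 (260 against 607 TPM, -1.22) and PSMB10 (11.4 against 26.8 TPM, -1.17) were lower. B2M stood at 826 against 477 TPM (0.79) and ISG15 at 71.0 against 37.3 TPM (0.91). IFIT2 (-0.25), IRF1 (0.00) and IRF9 (-0.39) were within 2-fold at 24 h. The rises at 24 h thus took in the cell-surface restriction factors BST2 and IFITM1 and the peptide-presenting HLA-B, while IFIT2 and IFIT3 were not among them. HLA-B lies in the window where most genes were listed at 0, so its level is not comparable with those of genes elsewhere. FP-RMS markers summed to 1205 TPM against 2730 TPM at 24 h, endothelial markers to 2.32 against 0.167 TPM and epithelial markers to 1.85 against 0.276 TPM; their part was not tested.

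**Figure D5:**
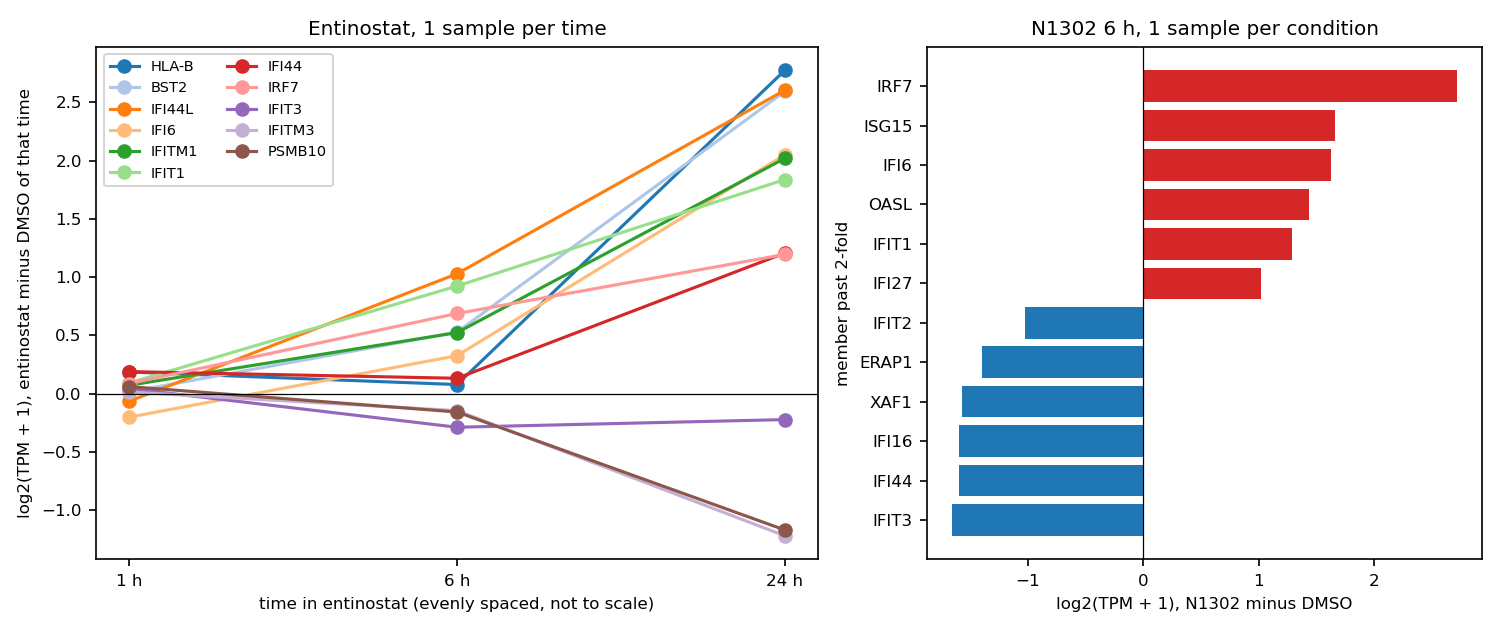
Left, log2(TPM + 1) difference between entinostat and the DMSO sample of the same time for 11 members at 1, 6 and 24 h. Right, the 12 members past 2-fold in N1302 at 6 h; each condition is 1 sample, and IRF7, at 2.72, is the longest bar.

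Side by side, each against its own DMSO, the HDAC inhibitors differed from gene to gene. At 6 h the log2 difference of IFIT1 was 1.19 in LAQ824 (called), 1.29 in N1302 and 0.92 in entinostat. That of IFI44 at 6 h was -1.58 in LAQ824 (called), -1.60 in N1302 and 0.13 in entinostat. For IRF7 the 6 h values were 2.74 in LAQ824 (called), 2.72 in N1302 and 0.69 in entinostat, whereas Merck60 had it at 1.3 and 2.71 TPM, below the DMSO range of 3.33 to 4.01 TPM and not called. The controls of the experiments also differed. B2M stood at 1609 TPM in the DMSO of the N1302 experiment, against 477 to 503 TPM in the time course, and ERAP1 at 50.5 against 16.9 to 18.1 TPM; the cause was not tested.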

How the data were processed

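RNA was poly-A selected and sequenced, and the study's methods name STAR for alignment to hg19 and RSEM for quantification. The submitters' processing notes list STAR and edgeR as tools. Which tool gave the deposited values was not tested. The deposited tables give 1 TPM value per gene and sample, scaled by the authors to transcript length and to a fixed total. Read numbers were recovered from the TPM steps (23629 of 23645 genes above 0 came out whole within 0.01, 99.93%); they served for depth, the comparison of DMSO libraries and the few read numbers given, and entered no test. In the high doses of Bromosporin, Merck60 and PFI-2 low values were mostly even numbers, so their totals may be too high.

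Samples were grouped from the labels. Log2(TPM + 1) was fitted with limma 3.58.1 (lmFit, eBayes with trend, R 4.3.3) across the genes that reached 1 TPM in 2 or more of 52 samples, with compound as the factor and a call at an adjusted p under 0.05 and a 2-fold difference. Fold changes on this scale understate low genes. On simulated data for LAQ824 against DMSO (16359 genes), 200 of 200 changed genes were recovered with 0 false calls. The simulated noise followed the spread of the DMSO libraries alone. Its changed genes stood above a set level and changed by more than 2-fold. Low genes, changes near 2-fold and the spread between doses were thus not covered. Same-numbered DMSO libraries carry the same flow cell name, hence the pairing used as a replicate block, and libraries differed between flow cells by 2.2 times counting noise. Axes were compared on compound means, the dose step with compound as a block, and N1302 and entinostat without a test. Named genes were, per compound, the 3 largest calls in each direction, for single pairs the 3 members furthest past 2-fold with at least 2 TPM, a fixed list of 11 members, and 2 further pathway genes each way in LAQ824, Bromosporin and WT161; others are named after their values were seen. Alternatives were another pseudocount (0.1), median-ratio scaling, other filters, other references, a replicate block and leaving out samples. The members and lists were chosen with earlier results of these data known. Promoters are RefSeq, GRCh38.p14.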

Additional observations from a re-analysis of the deposited data

Results flagged for a closer look

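Among the 7 acetylation compounds, 3 of the 31 tested members had a single compound whose gap to its nearest neighbour was large for the range of the group, by Dixon's criterion. Chance flags about 1 in 20 groups. PSMB10 stood at -1.19 in Bromosporin, on the scale of the log2 difference from DMSO, with the next compound at -0.38 and the highest at 0.00. ERAP1 stood at 0.64 in MC1568 (0.639 before rounding), with the next at 0.02 and the lowest at -0.44. IFI44L stood at 1.57 in MC1568, with the next at 0.35 and the lowest at -0.57. No explanation was tested for any of them.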

How the results depend on the processing

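The 18 calls were re-examined under each alternative. None changed direction. All 18 were made again without a filter on low values and with the 4 DMSO libraries as separate samples, and 17 under the pseudocount 0.1. Scaling by median ratios also kept all 18, and it moved the median of all genes by 0.17 at the high dose of Bromosporin, 0.12 at that of UNC0638, 0.14 in N1302 and 0.10 in entinostat at 6 h. With only the compound and DMSO in the fit, Bromosporin and WT161 had 0 calls. Without a fold minimum the counts were 10 in Bromosporin, 17 in LAQ824, 5 in MC1568, 3 in WT161 and 1 each in Trametinib and UNC0638. At an unadjusted p under 0.05, a looser limit, 45.3% of all genes passed in Bromosporin, 58.3% in LAQ824 and 41.8% in WT161. The shares were 35.1% in MC1568, 12.4% in Trametinib and 29.6% in UNC0638. These counts were thus not read as particular to the members. Requiring a mean TPM of 5 left 5 in LAQ824 and 0 in Cpd50, MC1568 and WT161, whose called genes were then not tested. MC1568 had 2 with a pseudocount of 0.1 and 2 with the replicate block, which changed no other call (LAQ824 10, Cpd50 1, GSKJ4 0, DMSO concentrations 0). Against the other compounds of its flow cell WT161 had 3 (IFIT2 and IFIT3 lower, IFI27 higher), with no share of all genes given for that fit. Leaving out a dose or a DMSO concentration gave 0 to 8 in Bromosporin, 0 to 1 in Cpd50, SGC-CBP30 and UNC1999, 0 to 2 in EZ-005, 0 to 4 in UNC0638, 0 to 6 in WT161, 8 to 9 in LAQ824 (STAT2, IRF9 or IFIT2 lost) and 1 throughout in MC1568; a lone dose was assumed to vary like the other groups. Between axes the high dose alone gave 6 members and leaving out 1 compound gave 0 to 10. Entinostat at 6 h had 2 members past 2-fold with a pseudocount of 0.1 or with scaling, and 0 against the mean of both 6 h DMSO samples. Scaling moved the interferon median from -0.35 to -0.23 in Bromosporin, from 0.18 to 0.30 in Cpd50, from 0.06 to 0.39 in N1302 and from 0.25 to 0.38 in entinostat at 6 h, and the antigen presentation median from 0.0049, 0.31 and 0.055 to 0.13, 0.64 and 0.17 in the last 3. The causes of these shifts were not tested. Counts in this paragraph without a share of all genes beside them say nothing particular to the members.

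Most antigen presentation members cannot be judged in these tables, since most genes of their region were listed at 0. Single-pair comparisons have no replicate check. Of the 20 compounds, 16 ran on flow cells without a DMSO library, so flow cell and compound cannot be told apart there, except against the other compounds of that flow cell.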
